A study of Mus musculus with 32 samples.

Results

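The genes described here carry symbols of the machinery of vesicle traffic and exocytosis: 107 of the 8251 genes that had a probe set assigned to a single gene on the array. The choice went by symbol alone and also took in genes of other function, such as the signal peptidase subunits Sec11a and Sec11c. All 107 are called traffic genes below. They were chosen by symbol, as Rab, Vamp, Snap, Stx and Stxbp genes, Sec genes (apart from Sec61a1), subunits of the COPI coat, Arf genes and subunits of adaptor protein complexes. By role they were 33 Rab GTPases, 6 genes named for a Rab (Rab10os, Rab11fip5, Rab26os, Rab3il1, Rab3ip and Rab5if), 7 Vamp genes, 4 Snap genes, 10 syntaxins and 2 syntaxin-binding genes. The others were 8 COPII coat genes, 7 COPI coat genes, 6 Arf GTPases, 4 translocon genes, 6 other Sec genes and 14 adaptor subunits. Of the 107 genes, 73 had 1 probe set and 34 had more. Where a gene had several, the one brightest on average across the 32 arrays stands for it.

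All animals were wild-type FVB mice, and the arrays measured total RNA of whole tissue lysed as individual samples. The time course comprised mammary glands of chow-fed dams on days 12 and 17 of pregnancy (PD12 and PD17) and days 1, 2 and 9 of lactation (LD1, LD2 and LD9), with 4 arrays per stage. For the diet experiment, dams on chow until lactation day 5 received a soy oil diet with 8% or 40% of energy as fat for 5 days, and glands were taken at lactation day 10. There were 3 gland arrays each at 8%, 16% and 40% fat and 3 liver arrays at 8% fat; the labels and design text do not name the day and feeding of the 16% group, and its arrays and those of the 8% glands were grouped by their titles because their descriptions name 40% fat. Values are log2 of GCRMA intensity, and errors are SD over arrays. In whole tissue, fewer cells of a type and less RNA per cell cannot be told apart.

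Secreted proteins enter the endoplasmic reticulum through the Sec61 translocon, with Sec62 and Sec63 as auxiliary subunits. They leave it in COPII-coated vesicles, while the COPI coat, recruited by Arf GTPases, returns membrane and escaped proteins from the Golgi. Rab GTPases mark each compartment and select its partners, adaptor complexes sort cargo at the trans-Golgi and endosomes, and SNARE proteins (syntaxins, Snap and Vamp proteins) fuse the vesicles with their targets. In the milk-secreting cell this route carries caseins and other milk proteins to the apical membrane, and milk fat leaves by another route, as droplets wrapped in that membrane.

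RefSeq promoter windows (GRCm38.p6) matched 96 of the 107 genes, in 114 windows. Both strands were searched for the UPRE core TGACGTGG (reverse complement CCACGTCA), a sequence bound by factors of the unfolded protein response. It was present in 6 windows (5.26%) of 5 genes, against 0.676% of 32851 windows of all genes. The cyclic AMP response element TGACGTCA, which differs from it in letters, was in 5 windows (4.39%), of Ap2b1, Cope, Rab25, Rab5a and Stxbp3, against 1.79%. The CLEAR box, a motif of lysosomal genes, was in 3 (2.63%), of Rab21, Rab24 and Rab5a, against 0.326%. The ERSE, another element of the unfolded protein response, was in none of the 114 windows and 0.119% of all. The Stat5-type motif TTCNNNGAA was in 8 (7.02%) against 8.30%, and the SRE-type motif TCACNCCAC in 1 (0.877%, Rab3a) against 1.24%. A match describes letters and is neither a site nor a cause. The Arf1 windows with the UPRE core overlap and hold the same bases, so that match is counted in both. The UPRE matches shown for Sec23a and Stx5a begin 6 and 9 bases after the gene start. Stx5a has another match 39 bases after its start, beyond the sequence shown. The 5 genes with the UPRE core are shown because they belong to the COPI coat, its Arf recruiter, the COPII coat and the Golgi SNAREs, and their changes with stage are described with those groups. Each sequence runs from 120 bases before to 20 bases after the gene start, on the gene's strand, with the motif in capitals. They lie at chr7:114254661-114254800 (minus strand, Copb1), chr9:98563611-98563750 (plus, Copb2), chr11:59228143-59228282 (minus, Arf1), chr12:59011998-59012137 (minus, Sec23a) and chr19:8741304-8741443 (plus, Stx5a).
Copb1: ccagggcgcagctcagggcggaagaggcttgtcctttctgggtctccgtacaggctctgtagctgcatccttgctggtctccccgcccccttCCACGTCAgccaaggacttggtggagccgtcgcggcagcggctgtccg
Copb2: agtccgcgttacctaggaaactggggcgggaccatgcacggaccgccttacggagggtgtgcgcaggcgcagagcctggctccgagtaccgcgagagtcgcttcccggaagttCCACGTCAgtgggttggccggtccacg
Arf1: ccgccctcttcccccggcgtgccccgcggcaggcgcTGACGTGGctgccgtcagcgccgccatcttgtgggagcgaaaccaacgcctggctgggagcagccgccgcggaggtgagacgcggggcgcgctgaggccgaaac
Sec23a: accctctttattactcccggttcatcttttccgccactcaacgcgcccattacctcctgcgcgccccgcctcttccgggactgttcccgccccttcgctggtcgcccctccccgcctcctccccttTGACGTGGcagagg
Stx5a: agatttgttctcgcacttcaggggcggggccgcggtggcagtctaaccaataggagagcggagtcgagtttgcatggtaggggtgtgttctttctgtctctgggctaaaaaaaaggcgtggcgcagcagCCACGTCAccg
The 11 genes Ap1m1, Ap3s1, Arf6, Rab18, Rab2a, Rab4a, Sec11c, Snap25, Vamp2, Vamp3 and Vamp7 had no window.

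The arrays were close to one another in overall scale, with median intensities from 16.1 to 21.5 and mean correlations within a group from 0.988 to 0.995. The tissue labels matched the markers: albumin (Alb) averaged 14.9 in liver, and β-casein (Csn2) averaged 14.2 in the 8% fat gland and 2.46 in liver. The summed levels of cell type markers in the gland changed with stage. The summed level of 10 milk secretion genes went from 16.6 to 17.0 at PD12 to 17.5 to 17.7 at PD17, 17.8 to 17.9 at LD1, 18.0 to 18.1 at LD2 and 18.0 to 18.1 at LD9. That of adipocyte markers was 13.4 to 14.2 at PD12, 12.6 to 12.8 at PD17, 11.4 to 12.1 at LD2 and 10.6 to 11.5 at LD9. That of fibroblast and matrix markers was 14.3 to 14.6, 13.7 to 13.8, 12.7 to 13.1 and 10.9 to 12.5 at the same stages, and that of luminal epithelial markers at PD17, LD2 and LD9 was 12.8 to 12.9, 12.2 to 12.5 and 12.1 to 12.3. No probe set was at 0. The part of these shifts in the changes below was not tested.

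The traffic genes passed the test over stages at a share slightly below that of all probe sets. Of the 107 genes, 88 reached the expression line of the time course (a highest stage mean of at least 4.22, the median of all values) and 19 did not; 17 were below the line in all 9 groups. Of the 88, 75 passed the moderated F test over the 5 stages (limma, adjusted p under 0.05), beside 87.5% of all 7189 probe sets tested. From PD12 to PD17, 21 rose and 13 fell, where 18.4% of all probe sets were called higher and 26.7% lower. From PD17 to LD2, across parturition, 21 rose and 14 fell (background 25.5% higher and 24.5% lower). Between PD17 and LD1, an interval that includes parturition, 10 rose and 6 fell (9.32% and 14.0%). Between LD1 and LD2, 9 rose and 12 fell (6.11% and 8.18%), with 4, 5 and 4 up without LD2 replicate 4, LD1 replicate 2 or LD1 replicate 3. From LD2 to LD9, 9 rose and 14 fell (8.82% and 16.2%), and from PD17 to LD9, 22 rose and 26 fell (32.2% and 31.9%). As a share, 39.8% of the tested genes changed between PD17 and LD2, beside 49.9% of all probe sets, and 54.5% between PD17 and LD9, beside 64.0%. Between PD12 and PD17 the shares were 38.6% and 45.1%, between PD17 and LD1 18.2% and 23.3%, between LD1 and LD2 23.9% and 14.3%, and between LD2 and LD9 26.1% and 25.0%. The median differences of the 88 genes were small, -0.04 from PD17 to LD2 beside 0.04 for all tested, and -0.15 from PD17 to LD9 beside 0.01. The arrays of the 2 stages did not overlap in 30 of the 88 genes from PD12 to PD17 (37.6% of all probe sets), 19 from PD17 to LD1 (24.4%), 33 from LD1 to LD2 (28.8%), 42 from PD17 to LD2 (50.3%), 26 from LD2 to LD9 (29.5%) and 43 from PD17 to LD9 (58.3%). These comparisons share the arrays of PD17, LD1, LD2 and LD9 and are not independent of one another.

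**Figure D1:**
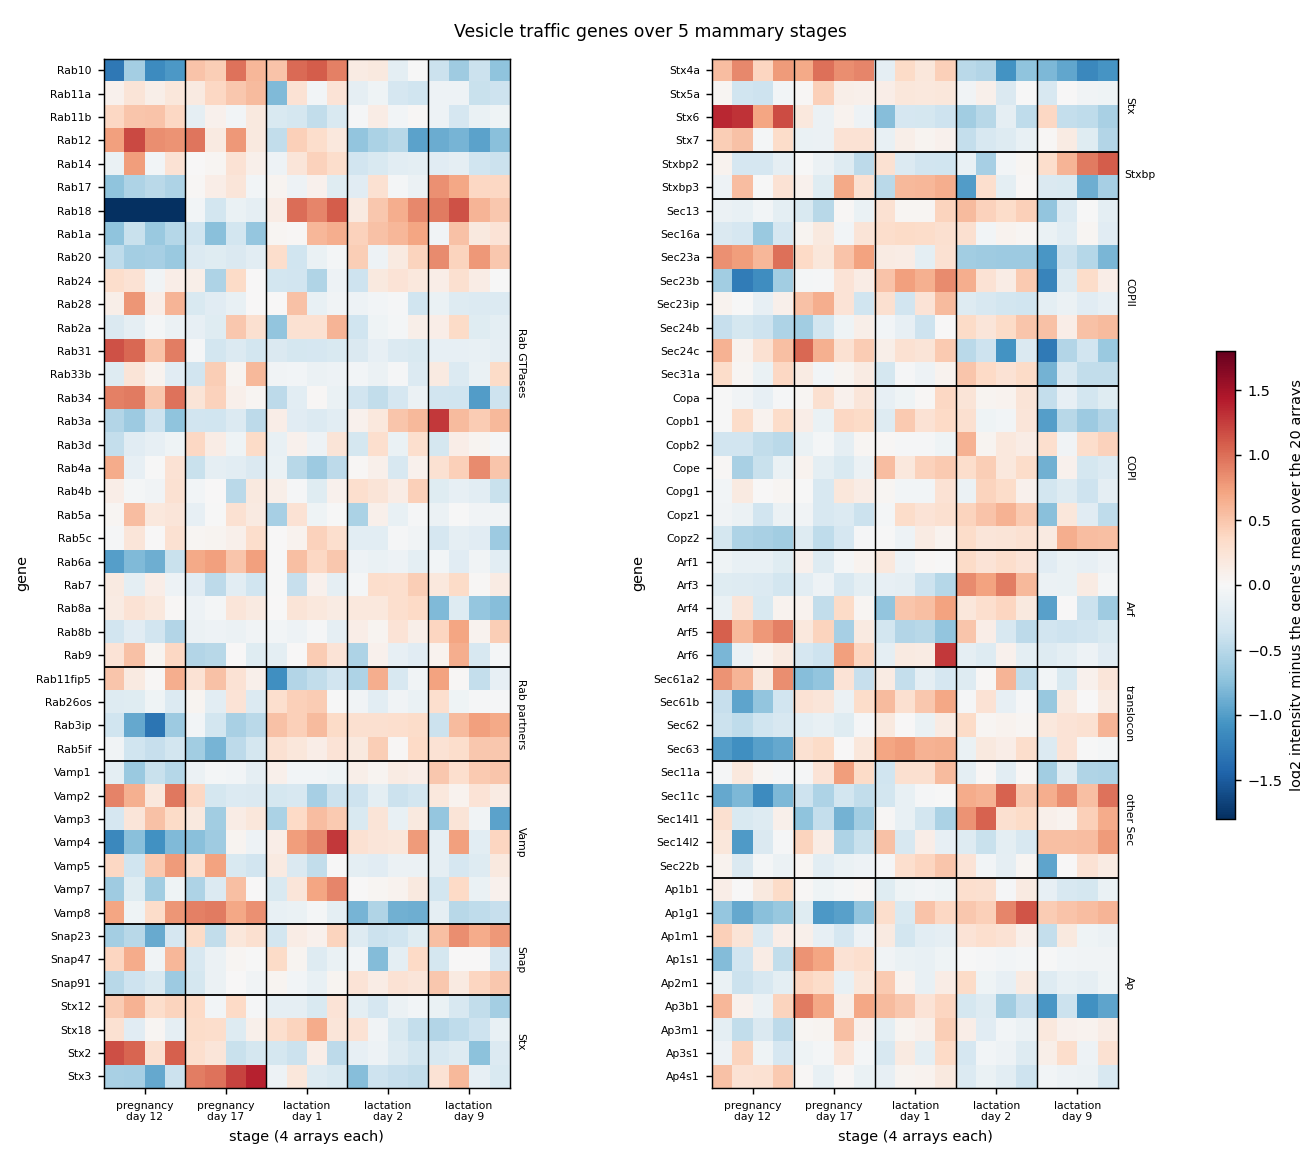
Heat map of the 88 tested traffic genes (rows, ordered by role in 2 columns) over the 20 time-course arrays (columns, 4 per stage), with colour giving log2 intensity minus the gene's mean over the 20 arrays. Rows of 1 role differ in the stage at which they are highest: of the 26 tested Rab GTPases 9 were highest at PD12, 4 at PD17, 3 at LD1, 4 at LD2 and 6 at LD9.

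The split between rises and falls depended on how arrays were scaled. Setting the medians of 19 ribosomal protein genes equal raised all differences from PD17 to LD2 by 0.39, from PD17 to LD1 by 0.35 and from PD17 to LD9 by 0.44; the 3 splits then became 40 higher and 8 lower, 42 and 2, and 39 and 9. Quantile normalization moved them by -0.13, -0.04 and -0.21 at the median and gave 26 and 12, 13 and 7, and 28 and 16. From LD2 to LD9, where the ribosomal shift was 0.05, the splits were 10 and 10 with ribosomal scaling and 17 and 10 with quantile normalization, against 9 and 14. From LD1 to LD2 they were 3 and 8, and 13 and 9, and from PD12 to PD17 21 and 10, and 27 and 11. Scaling moves all probe sets, and the shares of all probe sets, here and below, are for the values as deposited. Counts under another scaling cannot be set against those shares. They show how far the splits move and are not read as a result about the traffic genes. Dim probe sets also drifted upward: the 5233 below the line had a median difference of 0.19 from PD17 to LD2 and 0.31 from PD17 to LD9.

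Among the COPI coat genes, Copz1 and Cope rose from late pregnancy to LD2 and fell from LD2 to LD9, and the other rises and falls were of different genes. From PD17 to LD2, 4 of 7 COPI genes rose and none fell (median 0.32), beside 25.5% of all probe sets called higher and 24.5% lower. From LD2 to LD9, 5 of 7 fell and none rose (median -0.46), beside 16.2% of all probe sets called lower and 8.82% higher. The fall held in 5 genes whichever single array was left out, and in 3 under either quantile scaling, with 1 rise, or ribosomal scaling. Copz1, the ζ1 subunit, read 9.70, 9.48, 9.52 and 9.38 on the PD17 arrays, 10.17, 10.28, 10.39 and 10.23 at LD2, and 9.01, 9.97, 9.56 and 9.31 at LD9. All LD2 arrays lay above all arrays of the other 2 stages, and the LD9 arrays overlapped those of PD17. Its rise was 0.75 (95% interval 0.43 to 1.06, adjusted p = 0.000568) and its fall 0.80 (adjusted p = 0.000587, limma). Averaged with a second probe set, below the expression line, the rise was 0.44 and the fall 0.34, both still called. Copb1, the β1 subunit whose promoter is shown above, read 7.98, 7.62, 7.65 and 7.91 at LD2 and 6.71, 7.20, 7.05 and 7.18 at LD9, with no overlap, a fall of 0.75 (adjusted p = 0.00152). It had been level before, at 7.88 ± 0.17 at PD12 and 7.88 ± 0.23 at PD17 (n = 4 each). Cope, the ε subunit, rose by 0.53 from PD17 to LD1 (8.66 ± 0.14 to 9.19 ± 0.15, adjusted p = 0.022) and fell by 0.66 from LD2 to LD9 (9.10 ± 0.10 to 8.45 ± 0.39). Its rise at LD1 and that of Copz1 (0.46) were lost when any of 4 and 6 single arrays was left out, with adjusted p up to 0.0593 and 0.0867. Copg1 (γ1) fell by 0.46 and Copa (α) by 0.42 from LD2 to LD9, each without overlap.

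The remaining COPI genes did not fall. Copz2, the ζ2 subunit, read 7.70, 7.48, 7.64 and 7.91 at PD17, 8.26, 8.16, 8.17 and 8.21 at LD2 and 8.10, 8.59, 8.49 and 8.48 at LD9. It was thus higher in lactation than in late pregnancy at both stages, by 0.52 (adjusted p = 0.00118) and 0.73 (adjusted p = 2.31e-05). Copb2 (β2), read by a probe set that by the maker's suffix may match related sequences, rose from 10.24 ± 0.09 to 10.56 ± 0.26 between PD17 and LD2 and stood at 10.55 ± 0.21 at LD9. Of the 2 β subunits, Copb1 fell after LD2, and Copb2 differed by -0.01 between LD2 and LD9 (limma, adjusted p = 0.959). The COPI rise from PD17 to LD2 counted 2 to 4 genes when single arrays were left out, 2 without LD2 replicate 1 or PD17 replicate 3, and 5 and 6 under quantile and ribosomal scaling.

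Arf GTPases, which recruit COPI, included genes that were also highest at LD2. From PD17 to LD2, 2 of 5 tested rose and none fell, beside 25.5% of all probe sets higher and 24.5% lower. From LD2 to LD9, 3 fell and none rose (median -0.43), beside 16.2% lower and 8.82% higher, with 2 falls under quantile or ribosomal scaling. Arf1, the main recruiter of COPI, read 11.33, 11.02, 11.23 and 11.32 at PD17, 11.60, 11.50, 11.58 and 11.51 at LD2 and 11.06, 11.13, 11.11 and 11.16 at LD9. The LD2 arrays were the highest, and the PD17 and LD9 ranges overlapped. It rose by 0.32 (adjusted p = 0.00487) and fell by 0.43 (adjusted p = 0.000987). Arf3, a close relative of Arf1, read 7.42, 7.52, 7.32 and 7.43 at PD17, 7.47, 7.46, 7.23 and 7.10 at LD1, 8.46, 8.33, 8.53 and 8.19 at LD2 and 7.50, 7.50, 7.76 and 7.58 at LD9. Only the LD2 arrays of the time course exceeded 8: the change from LD1 was 1.06 (2.09-fold, adjusted p = 1.53e-05), and that to LD9 was -0.79 (adjusted p = 1.36e-05). A second Arf3 probe set gave 1.16 and -1.04 for those steps, and the last gave 0.11 and -0.06, neither called. Arf4 fell by 0.77 from LD2 to LD9 (adjusted p = 0.0312), a call that ended under quantile and ribosomal scaling and on leaving out any of 5 single arrays (adjusted p up to 0.115). Its LD9 replicate 1 was the lowest, at 7.76 against 8.09 to 8.74. Arf5 instead fell during pregnancy, from 7.25, 6.76, 6.95 and 7.08 at PD12 to 6.36, 6.57, 5.57 and 6.33 at PD17 (-0.80, adjusted p = 0.00307).

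The COPII coat, which buds vesicles from the endoplasmic reticulum, divided by subunit. From PD17 to LD2, 2 of 8 COPII genes rose and 3 fell (5 and 2 under ribosomal scaling), and from PD17 to LD9, 1 rose and 4 fell (2 with quantile or ribosomal scaling). Of all probe sets, 49.9% were called in the first comparison and 64.0% in the second. Sec23a and Sec23b encode the 2 forms of the inner-coat protein that activates the Sar1 GTPase. Sec23a read 8.05, 7.97, 7.82 and 8.21 at PD12, 7.58, 7.43, 7.73 and 7.95 at PD17, 7.37, 7.36, 7.04 and 7.50 at LD1, 6.60, 6.58, 6.57 and 6.56 at LD2 and 6.18, 6.83, 6.71 and 6.41 at LD9. The LD2 arrays lay close together and below all arrays of LD1 and before; the fall from PD17 was 1.10 (2.14-fold, adjusted p = 5.47e-06). Averaged with a second probe set, below the expression line in the gland, that fall was 0.46 (adjusted p = 0.00216, limma), and the step from LD1 to LD2 lost its call (-0.31, adjusted p = 0.0616). Sec23b moved the other way in pregnancy, from 7.67, 7.03, 7.16 and 7.66 at PD12 to 8.25, 8.27, 8.53 and 8.42 at PD17, a rise of 0.99 (adjusted p = 0.00229), or 0.54 as the mean of its probe sets (adjusted p = 0.0167). Its level was 8.97 ± 0.14 at LD1 and 8.05 ± 0.67 at LD9, where replicate 1 read 7.10. Sec24c, a cargo-binding subunit, fell from 8.43, 8.04, 7.68 and 7.85 at PD17 to 6.92, 7.02, 6.33 and 7.14 at LD2 (-1.15, adjusted p = 0.000191). Its step from LD1 to LD2, -0.82, was not called without LD2 replicate 3 (adjusted p = 0.0509).

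The outer-coat genes Sec13 and Sec31a had their highest stage mean at LD2. Sec13 read 9.27, 9.05, 9.57 and 9.43 at PD17, 10.12, 9.95, 9.87 and 9.97 at LD2 and 8.83, 9.29, 9.54 and 9.37 at LD9. Every LD2 array was above every PD17 and LD9 array, the rise being 0.65 (adjusted p = 0.000856) and the fall 0.72 (adjusted p = 0.00065). Sec31a, its partner in the outer cage, read 8.51, 8.37, 8.26 and 8.35 at LD2 and 7.16, 7.72, 7.57 and 7.56 at LD9, a fall of 0.87 (1.83-fold, adjusted p = 6.46e-05). Its rise of 0.45 from LD1 to LD2 and that of Sec24b, 0.49, were lost under ribosomal scaling and on leaving out single arrays (4 and 5 of them, adjusted p up to 0.0741 and 0.0961). Over the same LD2 to LD9 interval 8 of 12 fibroblast and matrix markers fell (median -1.06) and none of 10 milk secretion genes was called. Some milk secretion genes, such as Wap (15.75 at LD2 and 15.76 at LD9), lay near the highest values on the arrays. A missing call there does not show a steady level. The part of the cell make-up was not tested.

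**Figure D2:**
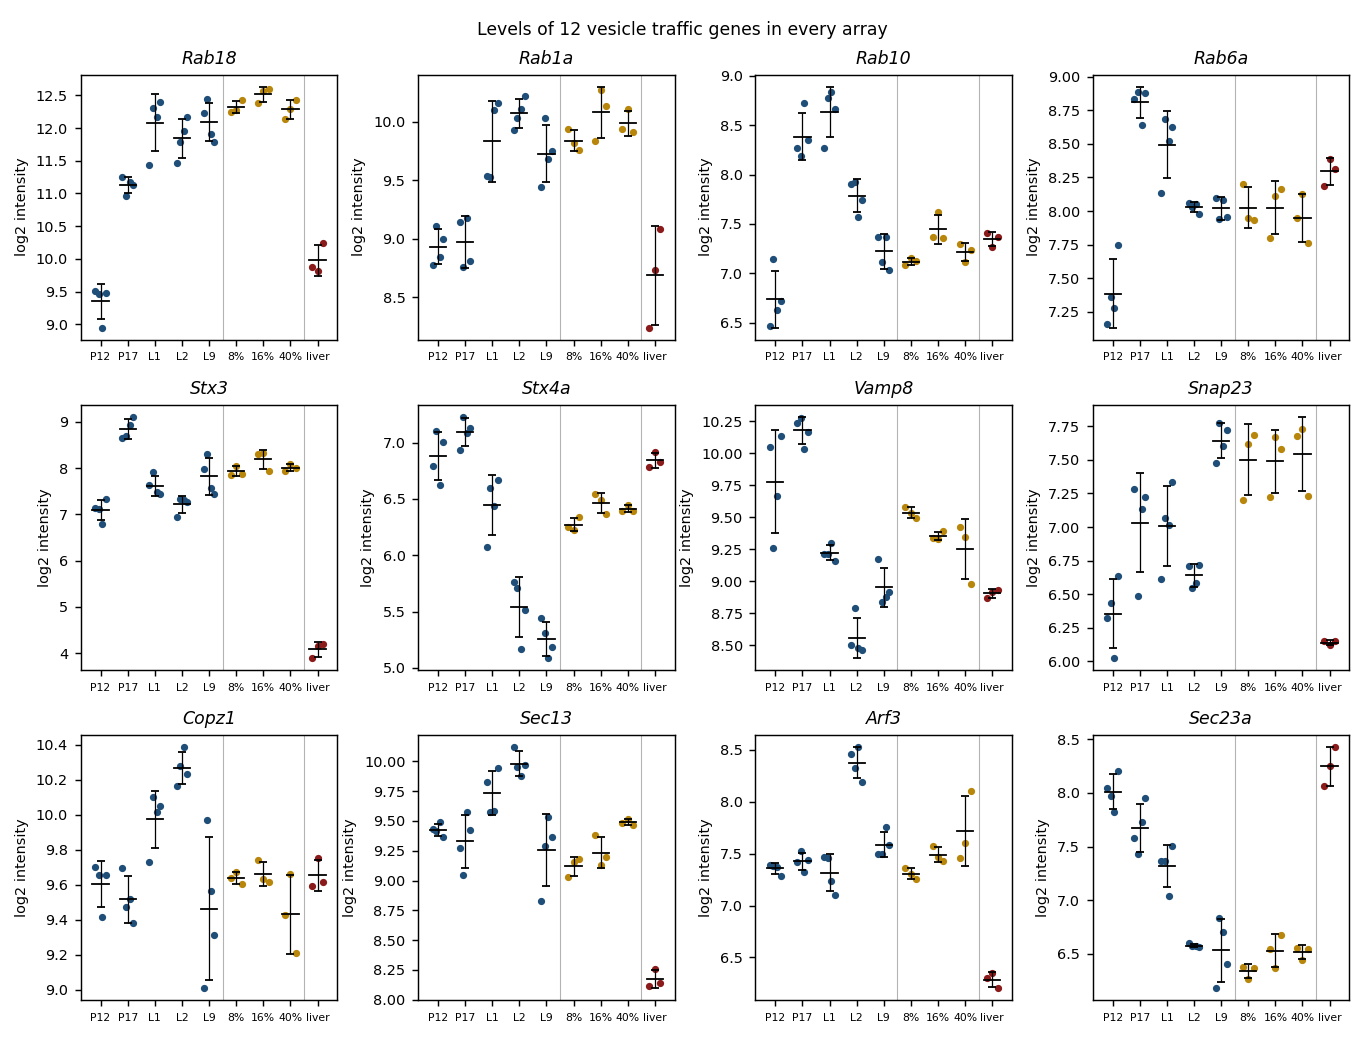
Log2 intensity of 12 traffic genes on every array (points) in the 9 groups, with the group mean (bar) and SD (whiskers; 4 arrays per stage, 3 per diet or liver group); each panel has its own vertical axis. Arf3, Copz1 and Sec13 peak at LD2, and Sec23a, Stx4a and Vamp8 are lower at LD2 than at PD17. Rab18 averages 9.35 at PD12 and 12.09 at LD9, and its lactation stages overlap.

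Of the 4 translocon genes tested, 2 rose and 1 fell from PD12 to PD17, and from PD17 to LD2 none was called (2 higher under ribosomal scaling, 1 under quantile). Of all probe sets, 45.1% were called in the first comparison and 49.9% in the second. Sec63, a membrane protein that recruits the chaperone BiP to the channel, read 4.97, 4.87, 4.99 and 5.05 at PD12, 6.24, 6.31, 5.98 and 6.17 at PD17 and 6.67, 6.72, 6.59 and 6.61 at LD1. The 3 stages did not overlap, and the steps were 1.21 (2.31-fold, adjusted p = 8.35e-08) and 0.48 (adjusted p = 0.00375). It then fell by 0.56 to LD2 (adjusted p = 0.00336). Sec61b, the β subunit of the channel, rose by 0.78 from PD12 to PD17 (8.42 ± 0.28 to 9.20 ± 0.19, adjusted p = 0.00144). Sec61a2, an α subunit of the channel, was the gene that fell, by 1.02 (5.78 ± 0.30 to 4.75 ± 0.47, adjusted p = 0.0015), with overlapping arrays. All 10 milk secretion genes rose over the same interval (median 1.16), and 7 of 9 adipocyte and 8 of 12 fibroblast markers fell; their part was not tested. Sec11c, a catalytic subunit of the signal peptidase that trims secreted proteins, rose later: it read 5.16, 5.36, 5.47 and 5.48 at LD1 and 6.16, 6.11, 6.54 and 5.97 at LD2, a step of 0.83 (adjusted p = 0.000739). Its level stood at 6.24 ± 0.20 at LD9, 1.18 above PD17 (adjusted p = 2.99e-07). Sec11a, the other catalytic subunit, was 0.82 lower at LD9 than at PD17 (8.87 ± 0.32 to 8.05 ± 0.18, adjusted p = 0.00037). Sec14l1, a lipid-binding protein of the Sec14 family, fell by 0.63 in pregnancy and rose from 7.05, 7.35, 6.94 and 7.16 at PD17 to 8.59, 8.84, 8.07 and 8.14 at LD2 (1.29, adjusted p = 2.1e-05). Its second probe set also rose at LD2, by 0.69, but gave 0.35 (not called) for the pregnancy step. For Sec14l2 the 2 probe sets disagreed from LD2 to LD9, with 0.88 (adjusted p = 0.00885) on the brighter and -0.86 (adjusted p = 0.0126) on the other.

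Among the Rab GTPases rises and falls were similar in number with the values as deposited. Of all probe sets, 45.1% were called from PD12 to PD17, 49.9% from PD17 to LD2 and 64.0% from PD17 to LD9. From PD12 to PD17, 6 of 26 tested rose and 6 fell (4 falls under quantile and 3 under ribosomal scaling); from PD17 to LD2, 6 rose and 5 fell (12 and 2 under ribosomal scaling); and from PD17 to LD9, 8 rose and 8 fell (12 and 3 under ribosomal scaling). Rab18, found on lipid droplets and at the endoplasmic reticulum, had the largest rise of pregnancy among the tested genes. It read 9.50, 9.46, 8.95 and 9.48 at PD12, 11.25, 10.97, 11.17 and 11.13 at PD17, 11.44, 12.31, 12.18 and 12.39 at LD1, 11.46, 11.79, 11.96 and 12.16 at LD2 and 12.23, 12.44, 11.92 and 11.79 at LD9. The steps were 1.78 to PD17 (3.44-fold, 95% interval 1.37 to 2.20, adjusted p = 9.59e-07) and 0.95 to LD1 (adjusted p = 0.00159), and the 3 lactation stages overlapped. Rab1a, which acts between endoplasmic reticulum and Golgi, rose between PD17 and LD1: it read 9.15, 8.76, 9.18 and 8.81 at PD17 and 9.54, 9.53, 10.10 and 10.16 at LD1, and all LD1 arrays were above all PD17 arrays. The change was 0.86 at LD1 (adjusted p = 0.000494) and 1.10 at LD2 (2.14-fold, adjusted p = 2.01e-05), with 0.49 and 0.68 as the mean of its probe sets, both still called, while that from PD12 to PD17 was not called.

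Rab10 and Rab6a rose in pregnancy and fell in lactation. Rab10, which acts in exocytosis and at the endoplasmic reticulum, read 6.47, 7.14, 6.62 and 6.72 at PD12, 8.27, 8.19, 8.73 and 8.35 at PD17, 7.90, 7.93, 7.57 and 7.74 at LD2 and 7.37, 7.11, 7.37 and 7.03 at LD9. The rise of 1.65 (3.13-fold, adjusted p = 1.34e-07) was followed by falls of 0.85 from LD1 to LD2 (adjusted p = 0.00226) and 0.56 from LD2 to LD9 (adjusted p = 0.0124). A second Rab10 probe set gave 0.96, -0.43 (not called) and -0.60. Rab6a, a Golgi Rab, read 7.16, 7.36, 7.28 and 7.74 at PD12, 8.84, 8.89, 8.64 and 8.88 at PD17 and 8.06, 8.03, 8.05 and 7.98 at LD2. It rose by 1.43 (adjusted p = 5.25e-08) and fell by 0.78 (adjusted p = 6.59e-05), to a level at LD2 still above that of every PD12 array. As the mean of its probe sets the changes were 0.67 and -0.35, both still called. Rab12, an endosomal Rab, fell by 1.21 from PD17 to LD2 (5.85 ± 0.41 to 4.64 ± 0.21, adjusted p = 5.39e-05). Rab8a, which serves exocytic carriers, was level from PD12 to LD2, between 9.06 and 9.25, and read 8.21, 8.76, 8.30 and 8.22 at LD9, a fall of 0.88 (1.84-fold, adjusted p = 1.76e-05) with no overlap.

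Rab3a, known from regulated secretory vesicles of neurons and endocrine cells, rose by 1.07 from PD17 to LD9: it read 5.75, 5.73, 5.85 and 5.62 at PD17 and 7.36, 6.66, 6.55 and 6.68 at LD9 (2.10-fold, adjusted p = 1.11e-05), and the mean of its probe sets gave 0.67. Rab20 rose by 0.86 over the same interval (7.03 ± 0.03 to 7.88 ± 0.22, adjusted p = 3.91e-05). Rab4a, of rapid endosomal recycling, was lower at PD17 than at PD12 by 0.45 and higher at LD9 than at LD2 by 0.53. Both Rab4a calls ended on leaving out single arrays (4 and 2 of them, adjusted p up to 0.126 and 0.0797), and the first also under quantile and ribosomal scaling. Rab31, which acts at the trans-Golgi, went from 4.98 ± 0.27 at PD12 to 3.85 ± 0.14 at PD17, below the expression line. Rab17, an epithelial Rab, rose by 0.59 from LD2 to LD9 (4.18 ± 0.20 to 4.76 ± 0.23), close to the line, where dim probe sets rose by 0.12 at the median. Rab11b, of recycling endosomes, differed by -0.34 from PD17 to LD1 and by 0.35 from LD1 to LD2; the first became 0.01 with ribosomal scaling, and the second was not called with it or without LD1 replicate 3 (adjusted p = 0.061).

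Of the genes named for a Rab, Rab5if rose from 8.57, 8.35, 8.73 and 8.87 at PD17 to 9.46, 9.40, 9.31 and 9.44 at LD1 (0.77, adjusted p = 9.24e-05), and all LD1, LD2 and LD9 arrays were above all PD17 arrays. Rab3ip, an exchange factor that activates Rab8, rose by 0.83 from PD17 to LD1 (5.49 ± 0.23 to 6.32 ± 0.10, adjusted p = 0.00678), and its second probe set gave 0.32 (not called). Rab11fip5, an effector of Rab11, fell by 0.89 at LD1, a call lost under ribosomal scaling and without LD1 replicate 1 (adjusted p = 0.0535).

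Several SNARE genes, among them Stx3, Stx4a and Vamp8, fell across parturition. Of 8 tested syntaxins, 3 fell and none rose from PD17 to LD2 (median -0.34), beside 49.9% of all probe sets called and 24.5% of all probe sets called lower. From PD17 to LD9, 5 fell and none rose, beside 64.0% called and 31.9% lower. Ribosomal scaling left 2 falls and 1 rise in each comparison, and quantile scaling 2 and 4 falls with no rise. Without LD9 replicate 4 the fit called 5 falls from PD17 to LD2. Stx3, the syntaxin of apical membranes, read 7.14, 7.12, 6.80 and 7.33 at PD12, 8.65, 8.70, 8.94 and 9.11 at PD17, 7.63, 7.92, 7.49 and 7.44 at LD1, 6.95, 7.34, 7.30 and 7.28 at LD2 and 7.98, 8.30, 7.57 and 7.44 at LD9. The PD17 arrays stood above all others. The rise of 1.75 in pregnancy (3.37-fold, adjusted p = 1.99e-07) was followed by a fall of 1.63 to LD2 (3.10-fold, adjusted p = 6.22e-07) and a rise of 0.60 to LD9, the last not called without LD2 replicate 1 (adjusted p = 0.0545). The 2 other Stx3 probe sets differed from this one. From PD12 to PD17 they gave 0.07 and 1.32, from PD17 to LD2 0.19 (adjusted p = 0.0706) and -0.40 (adjusted p = 0.0432), and from PD17 to LD9 0.61 (adjusted p = 8.43e-06) and 0.35 where the brightest gave -1.03.

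Stx4a, the syntaxin of basolateral membranes, has 1 probe set in the data used. It read 6.93, 7.23, 7.08 and 7.13 at PD17, 6.08, 6.59, 6.44 and 6.67 at LD1, 5.76, 5.71, 5.17 and 5.52 at LD2 and 5.44, 5.31, 5.09 and 5.18 at LD9. PD17, LD1 and LD2 did not overlap, and the fall from PD17 was 1.55 at LD2 (2.94-fold, 95% interval of the difference -1.86 to -1.24, adjusted p = 1.82e-07) and 1.84 at LD9 (3.57-fold, adjusted p = 6.74e-09). Its step to LD1, -0.65, was not called under ribosomal scaling. Stxbp3, the Munc18 protein that binds syntaxin 4, was 0.70 lower at LD9 than at PD17 (adjusted p = 0.0332), with no call at LD2. Stx6, of the trans-Golgi, fell in pregnancy, from 6.99, 6.92, 6.34 and 6.80 at PD12 to 5.82, 5.51, 5.69 and 5.53 at PD17 (-1.12, adjusted p = 7.77e-05). Stx5a, the Golgi syntaxin with a UPRE core in its promoter window, rose by 0.35 in pregnancy (adjusted p = 0.0189) and was 0.27 lower at LD9 than at PD17 (adjusted p = 0.0475).

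Vamp8, the R-SNARE of exocrine granules and late endosomes, fell with Stx3 and Stx4a. It read 10.24, 10.27, 10.03 and 10.16 at PD17, 9.21, 9.21, 9.30 and 9.16 at LD1, 8.50, 8.79, 8.48 and 8.46 at LD2 and 9.17, 8.84, 8.88 and 8.92 at LD9. The first 3 of these stages did not overlap, and the fall to LD2 was 1.62 (3.07-fold, adjusted p = 1.06e-07); a second probe set gave -1.11 (adjusted p = 1.41e-05), and the suffix of both marks them as possibly matching related sequences. Vamp4, of the trans-Golgi, moved the opposite way, from 4.95, 5.05, 5.75 and 5.60 at PD17 to 5.82, 6.45, 6.56 and 6.97 at LD1 (1.11, adjusted p = 0.00223; 0.61 as the mean of its probe sets, adjusted p = 0.00399). Its difference at LD2, 0.72, was not called without LD2 replicate 4, PD17 replicate 1 or PD17 replicate 2 (adjusted p = 0.0712, 0.0700 and 0.0617). Snap23, the partner of Stx3 and Stx4 outside neurons, read 6.71, 6.55, 6.58 and 6.72 at LD2 and 7.48, 7.78, 7.60 and 7.72 at LD9, a rise of 1.00 (2.01-fold, adjusted p = 0.000227). The LD9 arrays were the highest of the time course, above the 6.49 to 7.28 of PD17. Snap91, a clathrin assembly protein and no SNARE, rose by 0.34 from PD17 to LD2 at a level of 4.13, below the expression line, where dim probe sets rose by 0.19 at the median. Stxbp2, the Munc18 protein that binds syntaxin 3, rose by 0.92 from LD2 to LD9 on its brighter probe set (adjusted p = 0.000787), and the other gave -0.55 (adjusted p = 0.133). Between PD17 and LD2, 9 of 11 luminal epithelial markers fell and 1 rose (median -1.07), 7 of 10 milk secretion genes rose, and 7 of 9 adipocyte and 8 of 12 fibroblast markers fell; their part in the SNARE falls was not tested.

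Few adaptor genes were called. Of 9 tested, 1 rose and 2 fell from PD17 to LD2, where 49.9% of all probe sets were called (3 and 1 under ribosomal scaling, 3 and 2 under quantile), and 1 rose and 3 fell from PD17 to LD9, beside 64.0% (6 and 1 under ribosomal scaling, 4 and 2 under quantile). Ap3b1, the β subunit of AP-3, which sorts cargo to lysosome-related organelles, read 7.72, 7.48, 6.89 and 7.49 at PD17, 6.46, 6.55, 6.16 and 6.37 at LD2 and 5.73, 6.39, 5.69 and 5.83 at LD9. All LD2 and LD9 arrays were below all PD17 arrays, by 1.01 (adjusted p = 0.000222) and 1.48 (2.80-fold, adjusted p = 1.61e-06) on average. Ap1g1, the γ subunit of the trans-Golgi adaptor AP-1, rose from 6.06, 5.26, 5.31 and 5.57 at PD17 to 6.76, 6.72, 7.16 and 7.42 at LD2 (1.46, adjusted p = 4.58e-06) on its brighter probe set, but its second gave -0.06 (adjusted p = 0.804). Ap1s1, a σ subunit of AP-1, read 5.52, 5.42, 4.97 and 5.02 at PD17, above all arrays of the other stages; it rose by 0.87 in pregnancy (adjusted p = 9.85e-05) and fell by 0.61 to LD1, a fall not called under ribosomal scaling.

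**Figure D3:**
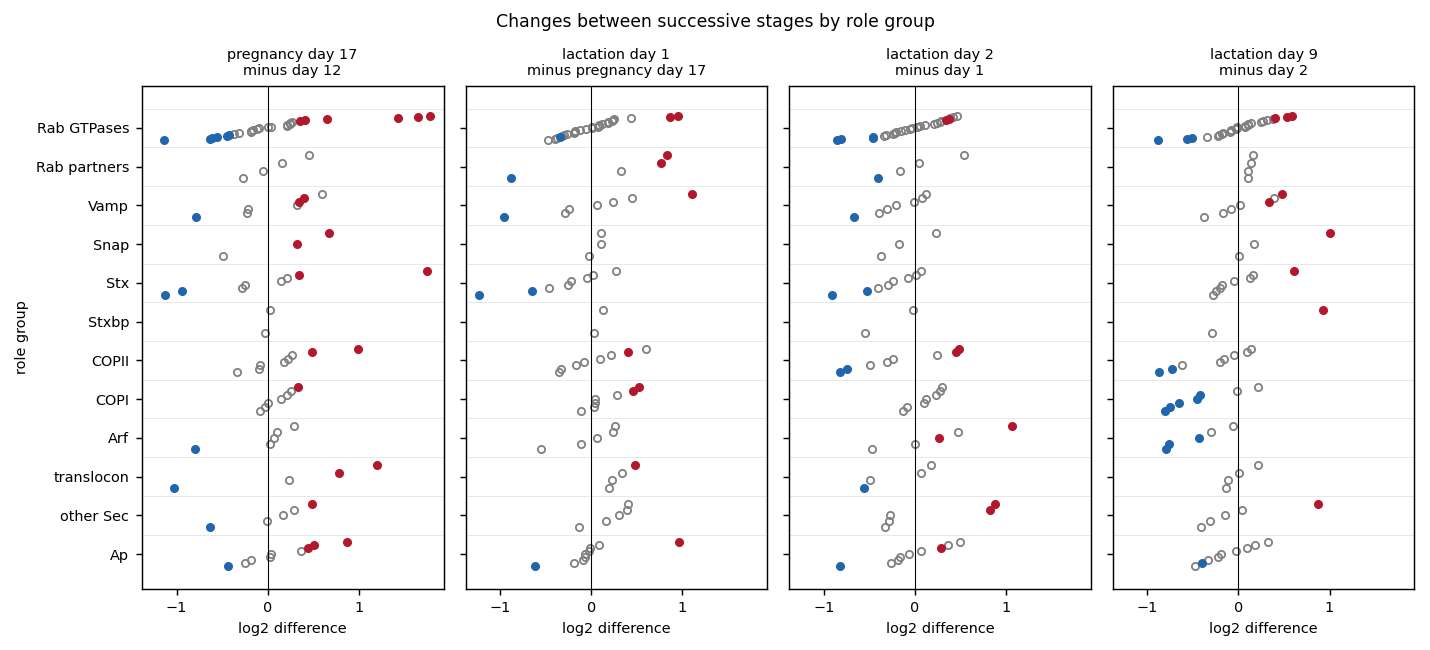
Differences in log2 intensity of the 88 tested genes by role in the 4 successive stage comparisons, 1 point per gene; filled red and blue points are called higher and lower (limma, adjusted p under 0.05) and open points are not called. From LD2 to LD9 the called COPI and Arf genes (5 and 3) lie below 0 with the values as deposited; quantile scaling added 1 COPI rise.

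Other traffic genes, from a list of 71 on the array outside the symbol rule, had 63 tested in the time course. From PD12 to PD17, 17 rose and 9 fell, where 18.4% of all probe sets were called higher and 26.7% lower. Among the rises were the p24 cargo receptor Tmed9 (2.30) and Arfgap3 (1.16), an Arf GTPase activator. From PD17 to LD1, 15 rose and 3 fell (all probe sets 9.32% and 14.0%). From PD17 to LD2, 17 rose and 19 fell (25.5% and 24.5%). Lman1 (ERGIC-53), the lectin cargo receptor of COPII vesicles, was 1.01 higher at LD1 and 1.07 at LD2; Gbf1, the exchange factor of Golgi Arfs, was 0.76 and 1.07 higher; and Tmed3 was 0.88 and 1.24 higher. Tmed9 fell by 1.47, Trappc3 by 1.02 and the KDEL receptor Kdelr1 by 0.92 from PD17 to LD2. From LD1 to LD2, 2 rose and 10 fell (6.11% and 8.18%), and from LD2 to LD9, 5 rose and 16 fell (8.82% and 16.2%). The falls to LD9 included Scamp3 (-1.57), the clathrin heavy chain Cltc (-0.66) and the Golgi stacking protein Gorasp2 (-0.67).

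No traffic gene passed the test between diets. Of 87 genes tested in glands at 8%, 16% and 40% fat, none was called in any of the 3 comparisons (limma, adjusted p under 0.05), beside 0.0925% of 6483 probe sets for 40% against 8%, 0.123% for 40% against 16% and 0% for 16% against 8%. At an unadjusted p under 0.05 there were 8, 16 and 20 of the 87. The share of all probe sets at that level was not counted, so these counts are not read as a result about the traffic genes. The groups did not overlap in 14, 21 and 28 genes, beside 13.1%, 17.1% and 21.4% of all probe sets. With 40% against 8% fat the lowest adjusted p was 0.266, of Sec13: it read 9.03, 9.15 and 9.18 at 8% fat, 9.38, 9.13 and 9.19 at 16% and 9.49, 9.52 and 9.46 at 40%. The 40% arrays were above all others, by 0.37 over the 8% mean. The largest difference was that of Arf3, 0.42 (adjusted p = 0.477), where 40% fat replicate 3 read 8.10 and the 5 arrays of 8% fat and of the remaining 40% fat lay between 7.26 and 7.60. With 40% against 16% fat, Rab9, of traffic from late endosomes to the Golgi, came nearest to a call: 8.20, 8.30 and 8.29 against 8.86, 8.75 and 8.96, a difference of -0.59 (adjusted p = 0.0602). The 8% arrays, at 8.71, 8.47 and 8.44, lay above the 40% arrays and below those at 16%, so the order of levels did not follow the fat content. With 16% against 8%, Arf6 differed by 0.56 and Stxbp2 by -0.51, neither called. The 95% intervals of the difference stayed within 2-fold either way in 87, 86 and 85 of the 87 genes, with a median half-width of 0.29.

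**Figure D4:**
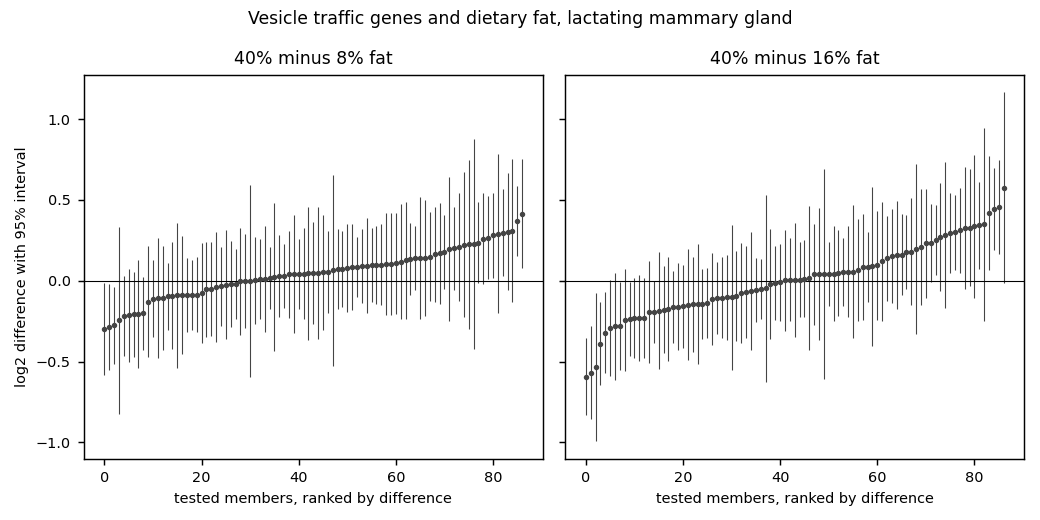
Differences in log2 intensity of the 87 traffic genes tested in the diet groups (points, ranked) with 95% intervals (lines), for 40% minus 8% fat and 40% minus 16% fat, 3 arrays per group. No gene was called, and the extremes were Arf3 (0.42) and Rab20 (-0.30) in the first and Stxbp2 (0.58) and Rab9 (-0.59) in the second.

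The glands at 8% and 40% fat were taken at another day than LD9, and the day of the 16% group is not named. Which arrays were normalized together is not stated. Diet, day and array processing cannot be told apart, so the levels are given side by side. Stx4a, 5.26 ± 0.15 at LD9 on chow, was 6.27 ± 0.06, 6.47 ± 0.09 and 6.41 ± 0.03 at 8%, 16% and 40% fat (n = 3 each). Rab18 was 12.09 ± 0.30 at LD9 and 12.32 ± 0.10, 12.51 ± 0.12 and 12.29 ± 0.15 in the diet groups. Snap23 was 7.64 ± 0.13 at LD9 and 7.50 ± 0.26, 7.49 ± 0.24 and 7.55 ± 0.28.

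Between liver and lactating gland, both secretory, the share of traffic genes called was below that of all probe sets. On 8% fat, 61 of 86 tested were called, 21 higher in liver and 40 lower, beside 80.0% of 6897 probe sets (39.7% higher and 40.3% lower), with a median of -0.18 beside -0.01 for all tested; the tissues did not overlap in 62 (83.1% of all probe sets). The split of rises and falls depended on scaling: it was 11 and 57 under quantile normalization and 62 and 14 with ribosomal medians equal, which raised every difference by 0.96. The shares of all probe sets above are for the values as deposited and cannot be set beside these splits. The 16 genes with the largest changes without overlap, 8 in each direction, were called in the same direction under both.

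The largest falls in liver were of Rab11fip5, Stx3 and Sec14l1. Rab11fip5 read 8.54, 7.15 and 7.85 in gland and 3.43, 2.82 and 2.74 in liver (-4.85, adjusted p = 5.8e-06), and Stx3 read 7.86, 8.06 and 7.88 in gland and 3.90, 4.15 and 4.19 in liver (-3.85, adjusted p = 3.32e-08). Both liver means lay below the expression line. The 2 other Stx3 probe sets were also lower, by 0.79 and 2.81. Sec14l1 was 3.38 lower (10.4-fold, 5.24 ± 0.06 against 8.62 ± 0.19, n = 3 each, adjusted p = 7.93e-08), and its second probe set 0.97 lower. Rab18 read 12.25, 12.28 and 12.43 in gland and 9.88, 9.81 and 10.25 in liver, a difference of -2.34 (5.08-fold, adjusted p = 1.64e-06). Rab3d, of exocrine secretory granules, was also 2.34 lower (4.21 ± 0.02 against 6.55 ± 0.17, adjusted p = 4.42e-07), to just below the line. Sec11c (-2.12), Rab4a (-1.87) and Stx6 (-1.76) completed the 8 largest falls without overlap. The liver means of Sec11c (3.89) and Stx6 (3.97) lay below the line too, so 5 of these 8 differences are set against dim signal. Of 9 syntaxins tested 5 were lower and 1 higher in liver, beside 40.3% of all probe sets lower and 39.7% higher. Of 4 translocon genes 3 were lower. One of these, Sec62, was called the other way on a dimmer probe set (0.95, adjusted p = 0.00208, against -0.56). The lower syntaxins and translocon genes numbered 6 and 4 under quantile scaling and 2 and 1 with ribosomal scaling.

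On the brightest probe set of each gene, the largest rises in liver were of Snap47, Rab12 and Sec23a. The dimmer of the 2 Sec14l2 probe sets rose more, from 4.68 in gland to 9.05 in liver (4.37, adjusted p = 1.06e-08), while the brighter gave -0.13 (adjusted p = 0.385). Snap47, a relative of the SNARE Snap25, read 4.86, 4.94 and 4.98 in gland and 7.19, 7.25 and 7.14 in liver (2.26, 4.80-fold, adjusted p = 1.64e-07). Rab12 read 5.56, 4.52 and 4.49 in gland and 7.23, 6.97 and 6.83 in liver (2.15, adjusted p = 0.00022). Sec23a read 6.38, 6.26 and 6.37 in gland and 8.06, 8.25 and 8.42 in liver (1.91, 3.75-fold, adjusted p = 2.22e-06), and a second probe set gave 1.43. In all 3 genes every liver array was above every gland array. Rab5a, of early endosomes, was 1.29 higher (7.24 ± 0.01 to 8.53 ± 0.29, adjusted p = 9.37e-05), Sec31a 1.16 higher (7.60 ± 0.10 to 8.76 ± 0.05) and Vamp7, a late endosomal R-SNARE, 1.10 higher (5.50 ± 0.13 to 6.60 ± 0.13). Arf5 (1.08) and Arf6 (0.99), the Arf of the plasma membrane, were also higher. As the mean of their probe sets the differences were 0.29 for Arf6 and 0.68 for Vamp7, both still called. Sec23a and Rab12, which fell in the gland from pregnancy to lactation, were thus above the 8% fat gland in liver, while Sec23b was 1.30 lower in liver (adjusted p = 6.63e-05), of which the ribosomal shift alone would take 0.96. Of the other traffic genes, 26 of 62 were higher and 27 lower, beside 39.7% and 40.3% of all probe sets. Sar1b, the COPII GTPase of lipoprotein export, was 1.96 higher, and Tmed3, Arfgap3 and Kdelr3 were lower by 3.05, 2.66 and 2.62. As to cell make-up, all 10 milk secretion genes were lower in liver (median -11.87) and all 11 hepatocyte markers higher (median 9.27); the tissues differ in their cell types, and level per cell was not measured.

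**Figure D5:**
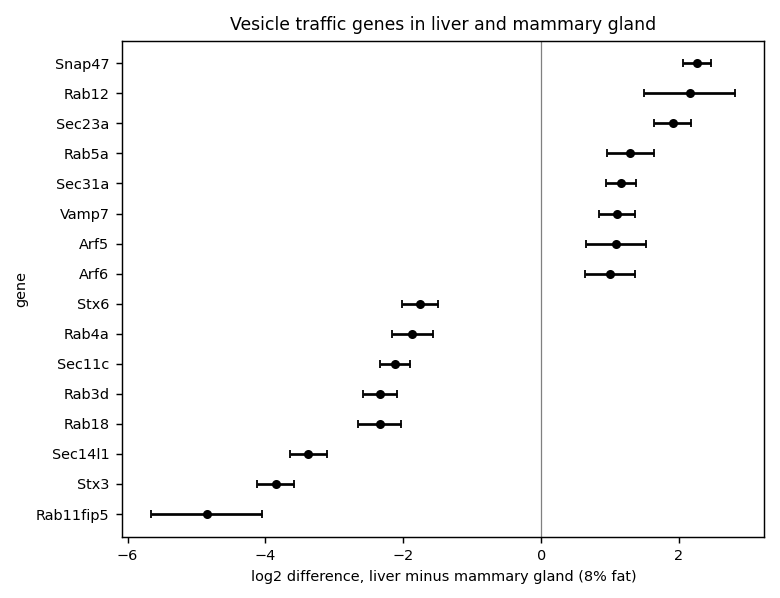
Differences in log2 intensity, liver minus mammary gland on 8% fat, of the 16 named traffic genes (points) with 95% intervals (lines; 3 arrays per tissue). The genes run from Rab11fip5 (-4.85) to Snap47 (2.26), and no interval crosses 0.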

How the data were processed

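The deposited values are probe-set intensities on a linear scale, summarised with GCRMA per the submitters' processing notes; which arrays were normalized in 1 run is not stated in the labels. The table held 12488 probe sets on 32 arrays; 66 controls were left out, values below 1 (208 of them) were set to 1, and log2 was taken. Gene names came from the platform annotation. Probe sets were tested where the highest group mean of the fit reached 4.22 (log2), the median of all values. Differences were tested with limma 3.58.1 (lmFit and eBayes, R 4.3.3) in 3 fits: 5 stages (20 arrays), 3 diets (9) and 2 tissues (6), with Benjamini-Hochberg adjustment over all probe sets tested and a threshold of 0.05. The design text names separate dams for the diet experiment but not for the time course, so p-values there measure the spread between these samples, which may be technical; the number of arrays limits the precision. On simulated data at 2-fold the fits recovered 92.4% of changed probe sets from PD17 to LD2, 93.8% for 40% against 8% fat and 96.9% for liver, with 5.61%, 4.96% and 6.80% false calls. The simulation used independent normal noise with the spread of each fit and changed 200 probe sets in each of 5 runs. It held no scaling drift and no outlying arrays, so these shares check the procedure and are not the power of the real fits. The genes, lists and motifs were chosen with earlier results of these data known. Named genes are, per comparison, up to 8 called in each direction without overlap, largest first, and, of the other traffic genes, the 4 largest rises and falls; Copa, Copg1, Copb2, Copz2, Snap91, Sec11a, Sec61a2, Stx5a and Stxbp3 were added after their values were seen, as were genes named in comparisons where the rule did not pick them. Alternatives were other scalings, filters, floors, probe-set means, groups in the fit, a replicate block and leaving out each array.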

Additional observations from a re-analysis of the deposited data

Results flagged for a closer look

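In 54 named traffic genes, each stage group of 4 arrays was screened for 1 array standing far from the other 3, and 19 of 270 groups (7.04%) were flagged; chance flags about 1 in 20. LD1 replicate 1 accounted for 5 of them. It was low for Ap1b1 (5.95, others 6.08 to 6.11), Arf4 (8.03, others 9.24 to 9.45) and Stx6 (4.85, others 5.24 to 5.32), and high for Rab3a (6.21, others 5.85 to 5.90) and Stxbp2 (5.21, others 4.59 to 4.69). LD9 replicate 1 accounted for 4: it was high for Rab28 (5.32, others 5.20 to 5.21), Rab3a (7.36, others 6.55 to 6.68) and Stx6 (5.99, others 5.04 to 5.20), and low for Rab3ip (5.47, others 6.42 to 6.60). In the other LD9 arrays, Rab34 was low in replicate 3 (5.52, others 6.15 to 6.19), Sec24b in replicate 2 (5.24, others 5.65 to 5.70) and Vamp1 in replicate 2 (4.78, others 4.94 to 4.97), and Sec14l2 was high in replicate 4 (9.32, others 9.09 to 9.11). In pregnancy, PD12 replicate 3 was low for Rab18 (8.95, others 9.46 to 9.50) and Rab34 (7.02, others 7.43 to 7.51), and PD17 replicate 1 was high for Vamp2 (5.83, others 5.14 to 5.21). At LD2, Stx3 was low in replicate 1 (6.95, others 7.28 to 7.34), Vamp4 was high in replicate 4 (6.46, others 5.89 to 5.97) and Vamp8 was high in replicate 2 (8.79, others 8.46 to 8.50).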

How the results depend on the processing

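Of 86 counts of called genes recomputed under another scaling, filter, floor, probe-set rule, set of groups or replicate block, 82 stayed within 1.5 times, and of 173 recomputed without 1 array, 171 did. The exceptions were 53 genes called from PD17 to LD2 with no expression filter (35 with it, more genes being tested), 44 from PD17 to LD1 (16) and 11 from LD1 to LD2 (21) with ribosomal medians equal, and 1 for 40% against 16% fat (0) with the filter at the 75th percentile. Without single arrays the count from LD1 to LD2 ranged from 12 to 29, and was 12 without LD2 replicate 4 or LD1 replicate 3. Of 110 named changes, 13 lost their call with ribosomal medians equal, 1 of them turning sign: Rab11b from PD17 to LD1 was 0.0069 (adjusted p = 0.965). Another 7 of 108 lost it with the mean of a gene's probe sets, 3 with quantile normalization, 3 of 94 when the fit held just the pair compared, 2 of 98 with the 75th percentile filter, 1 with no filter and none with a floor of 16. Except where a setting tests more or fewer genes, the cause was not tested. Leaving out 1 array ended 15 named calls at least once. With the replicate number as a block (replicate block), the counts were 36 from PD17 to LD2, 36 from PD12 to PD17, 19 from PD17 to LD1, 20 from LD1 to LD2, 24 from LD2 to LD9, 46 from PD17 to LD9 and 57 for liver, and 1 named call ended (Ap1b1 from LD1 to LD2, adjusted p = 0.0543). In the time course, same-numbered arrays had deviations correlated at 0.016 on average over 40 pairs (-0.25 to 0.29), and differently numbered arrays at -0.0058. The average was 0.031 over 9 pairs in the diet fit and 0.012 over 3 pairs in the fit of liver and gland. On average, same-numbered arrays were thus little more alike than others. Such averages over few or mixed pairs cannot exclude that some samples were paired. Array signal limits the 17 genes below the line in all groups.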
